A study of Mus musculus with 2 samples.

Results

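The genes described are the mouse microRNA genes named Mir297, Mir466, Mir467 or Mir669, with or without a further letter or number. They were chosen by name alone from the GENCODE M21 annotation, and 81 of the 2202 counted microRNA genes carry such a name. Of these, 71 lie inside Sfmbt2 on chromosome 2 and 10 lie elsewhere on 7 other chromosomes. They were measured by microRNA sequencing in myocytes made from C2C12, a myoblast line of C3H mice that had differentiated for 72 h. The series has 1 group of 2 libraries, labelled as biological replicates 1 and 2, and no treatment, allele or undifferentiated control enters it. The labels name a biosample for each library and do not say that the cultures were grown separately, so every spread and p-value measures the difference between these libraries and may be technical in part.

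Sfmbt2 encodes a Polycomb group protein and is an imprinted gene, expressed from the paternal copy in the mouse placenta and other extraembryonic tissue. One of its introns holds a large tandem array of microRNA hairpins that is known from mouse and rat and not from most other mammals. The hairpins share the transcript of their host, and the array is best known from placenta, trophoblast and embryonic stem cells. In muscle biology, miR-669a has been described as acting on the myogenic regulator MyoD in progenitor cells.

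All 71 hairpins inside Sfmbt2 (ENSMUSG00000061186.15, plus strand, chr2:10370510-10595253, mm10) lie on the strand of the host gene. They span 51.6 kb, from Mir466m at chr2:10466663-10466746 to Mir669h at chr2:10518155-10518279. None overlaps an Sfmbt2 exon. All lie in a single intron of 62472 bases (chr2:10461473-10523944), which is intron 11 of the transcript Sfmbt2-205 and intron 10 of Sfmbt2-201. By name the array holds 5 Mir297, 23 Mir466, 14 Mir467 and 29 Mir669 genes. Another 48 annotated microRNA genes, none of them with a name of these families, lie inside the same host gene.

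Mature sequences from RefSeq (GRCm38.p6) matched 8 of the 81 genes by symbol, all of them outside Sfmbt2. They are shown because they make visible the repeated purine and pyrimidine alternation that runs through the families. Each is written 5′ to 3′ with the seed, bases 2 to 8, in capitals.
mmu-miR-466i-3p: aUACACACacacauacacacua
mmu-miR-466j: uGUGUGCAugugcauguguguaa
mmu-miR-466k: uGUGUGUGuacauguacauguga
mmu-miR-466q: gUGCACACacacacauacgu
mmu-miR-467f: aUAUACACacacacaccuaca
mmu-miR-467g: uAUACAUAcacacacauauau
mmu-miR-467h: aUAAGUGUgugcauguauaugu
mmu-miR-669n: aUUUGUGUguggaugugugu

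The 8 sequences had 8 different seeds, so none could be grouped with another by a shared seed, even within Mir466 or Mir467. Between 78.9% (miR-669n) and 100% (miR-466q and miR-467g) of their neighbouring bases switched between purine and pyrimidine. None of the 8 full sequences occurred in a hairpin of the Sfmbt2 array. The letters of 4 of the seeds were common there all the same, counted on the hairpin strand alone. The miR-467g seed AUACAUA occurred in 62 of the 71 Sfmbt2 hairpins (87.3%), against 6.49% of all 2202 hairpins. The miR-466i-3p seed UACACAC occurred in 46 (64.8%, against 8.17%), and the miR-466k seed GUGUGUG in 43 (60.6%, against 9.54%). The miR-466j seed GUGUGCA occurred in 40 (56.3%, against 4.81%). The other 4 seeds were each found in at most 12 of the 71 hairpins. Such short repeat motifs can occur anywhere in a hairpin, and a match does not place a mature microRNA there.

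The same make-up was seen in whole hairpins. A median of 86.2% of neighbouring bases switched between purine and pyrimidine over the 81 genes, against 44.3% over the other 2121 microRNA genes. All 81 were above 60%, as were 13.0% of the others. The others include the 48 further microRNA genes inside Sfmbt2, which ran from 64.3% to 88.8% with a median of 69.5%. The make-up was thus not particular to the named families. Median hairpin GC of the named genes was 36.1% inside Sfmbt2 and 38.9% outside, against 50.8% over all 2202 genes. For the 48 further genes it was 38.9%. Copies inside the array were close to identical in places. The 12 numbered Mir669a genes had 4 distinct hairpin sequences with a median pairwise identity of 100%, the 10 Mir467a genes had 3 with a median of 98.8%, and the 8 Mir466b genes had 6 with a median of 93.7%. The 71 array genes together had 53 distinct hairpin sequences.

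**Figure D1:**
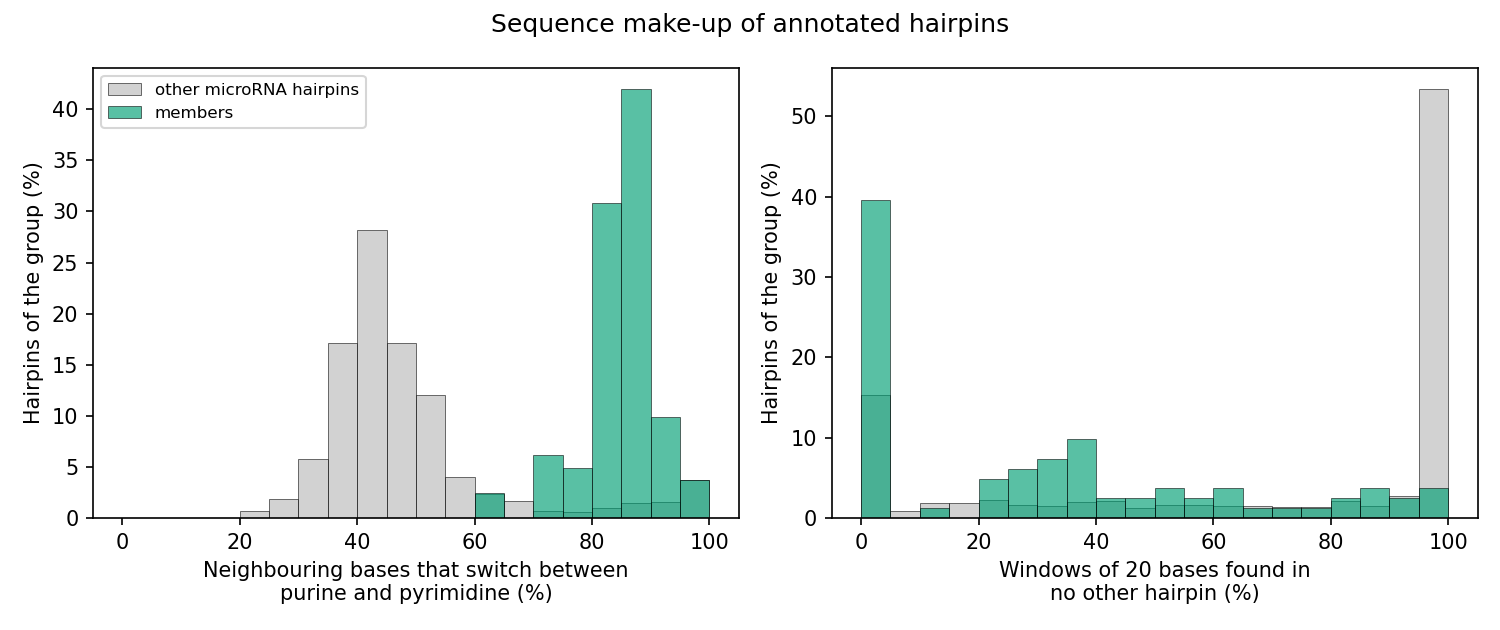
Share of hairpins (y axis, % of the group) by the percentage of neighbouring bases that switch between purine and pyrimidine (left) and by the percentage of 20-base windows found in no other hairpin (right), for the 81 named genes (green) and the other 2121 microRNA genes (grey). The green bars sit to the right on the left panel, with a median of 86.2% against 44.3%, and mostly to the left on the right panel.

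Replicate 1 had 7581366 and replicate 2 had 9865298 counts on the sense strand of microRNA genes, and levels are given as CPM (counts per 1000000 of these). Of the microRNAs that mark the labelled cell type, 6 of 8 muscle markers (75%) had at least 10 counts in each library, against 14.3% of all 2202 microRNA genes. Mir206 alone held 34.1% and 41.7% of the counts. Mir133a-1 and Mir133a-2 had at least 10 counts in replicate 2 but fewer in replicate 1. Mir1a-1 and Mir1a-2 were low, with mean levels of 2.94 and 3.02 CPM. The tables list multi-mapped reads as an entry apart from the genes, with 22.01% and 17.9% of all reads. From this layout the gene counts were taken to be of uniquely mapped reads, although no source used here states the rule. How many of them came from the named families was not tested.

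Counts on the named genes were few and came from a handful of hairpins of the Sfmbt2 array. At least 10 counts in each library, the rule for calling a gene detected, were found for 6 of the 71 genes inside Sfmbt2 (8.45%) and for none of the 10 outside, against 14.3% of all 2202 microRNA genes. The 6 were Mir467c, Mir467d, Mir467e, Mir669c, Mir669l and Mir669o. Together the array genes had 2732 counts in replicate 1, or 0.0360% of the counts assigned to microRNA genes (exact Clopper-Pearson 95% interval 0.0347% to 0.0374%). In replicate 2 they had 795 counts, or 0.00806% (0.00751% to 0.00864%). The mean share was 0.0220% ± 0.0198 (SD, n = 2), so the spread between the libraries was nearly as large as the mean. With every sequenced read in the denominator, also those given to no gene, the mean share was 0.0111%. The intervals take reads as independent and cover counting error only. The libraries carry no molecular identifiers, so duplicate reads cannot be told apart and the intervals may be too narrow.

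Mir467d (ENSMUSG00000077021.2, chr2:10507630-10507714) had the most counts of the 81 genes. It had 1253 counts (165 CPM) in replicate 1 and 307 counts (31.1 CPM) in replicate 2, a mean of 98.2 ± 94.9 CPM (SD, n = 2) and rank 134 of 2202. Mir467c (ENSMUSG00000077049.2, chr2:10473931-10474027) had 694 counts (91.5 CPM) and 194 counts (19.7 CPM). Mir467e (ENSMUSG00000076948.2, chr2:10505721-10505807) had 582 counts (76.8 CPM) and 152 counts (15.4 CPM). These 3 Mir467 genes gave 92.6% of the array's counts in replicate 1 and 82.1% in replicate 2. Replicate 1 was the higher library for each of them.

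The make-up of the Mir467 counts was similar in the libraries although their level was not. Mir467d held 49.5% of the counts of these 3 genes in replicate 1 and 47.0% in replicate 2. Mir467c held 27.4% and 29.7%, and Mir467e held 23.0% and 23.3%. The order Mir467d, Mir467c, Mir467e was thus the same in each library, while the SDs of the means overlapped throughout. It also held per length of hairpin, with mean levels of 115.5, 57.3 and 53.0 CPM per 100 bases.

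The detected Mir669 genes were rarer. Mir669o (ENSMUSG00000077086.1, chr2:10514300-10514395) had 94 counts (12.4 CPM) in replicate 1 and 29 counts (2.94 CPM) in replicate 2. Mir669l (ENSMUSG00000076959.1, chr2:10468971-10469068) had 50 and 51 counts (6.60 and 5.17 CPM). Mir669c (ENSMUSG00000076118.1, chr2:10509296-10509404) had 36 and 53 counts (4.75 and 5.37 CPM). Their order differed between the libraries: Mir669o was the highest of these 3 in replicate 1 and the lowest in replicate 2.

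Mir669e (chr2:10467495-10467613) fell just short of detection, with 15 counts in replicate 1 and 7 in replicate 2 (1.98 and 0.710 CPM). Another 7 array genes had only 1 or 2 counts in all. Mir467b (chr2:10481248-10481320) and Mir669h had 2 counts in replicate 1, and Mir466l (chr2:10516097-10516217) had 2 in replicate 2. The remaining 4, each with 1 count in replicate 1, were Mir297a-2, Mir466b-3, Mir466h and Mir669f. They are named to complete the count, after their values were seen. The counts of these 7 are below the 3 counts that a count of 0 allows, 0.396 CPM in replicate 1 and 0.304 CPM in replicate 2. The other 57 array genes had no count in either library.

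**Figure D2:**
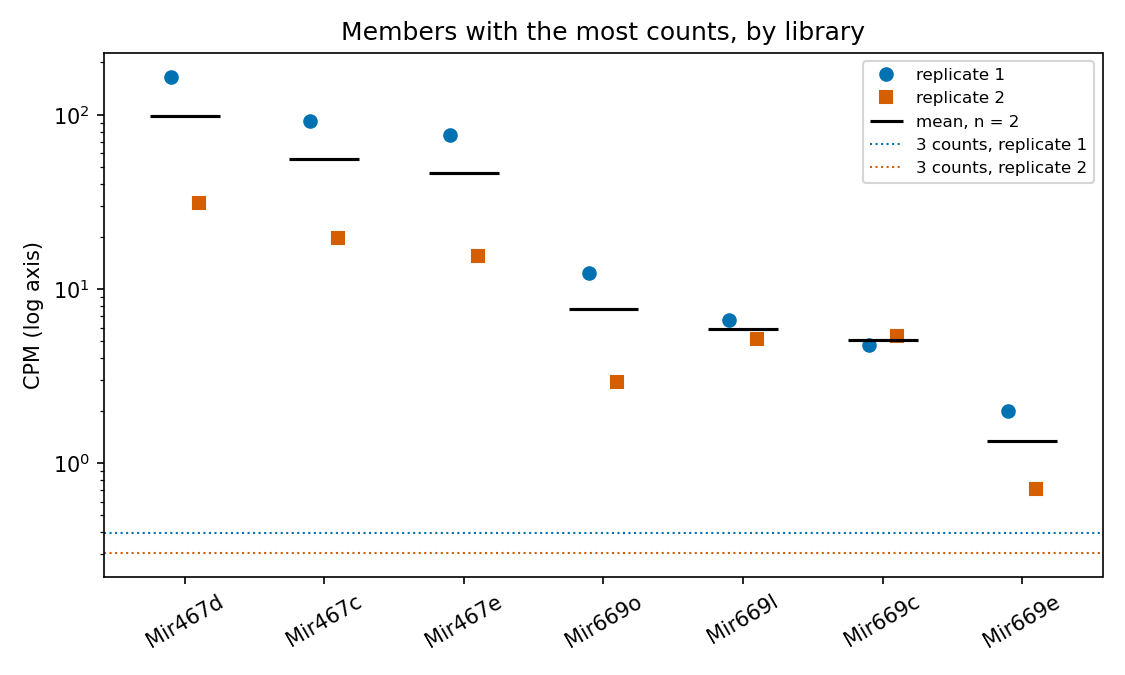
CPM on a log axis (y) of the 7 named genes with the most counts (x) in replicate 1 (blue circles) and replicate 2 (orange squares), with the mean of n = 2 as a bar and dotted lines at 3 counts in each library. The 3 Mir467 genes and Mir669o lie higher in replicate 1, at 165 against 31.1 CPM for Mir467d, while Mir669l and Mir669c lie close together.

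By family, 3 of 14 Mir467 array genes (21.4%) and 3 of 29 Mir669 array genes (10.3%) were detected, against 14.3% of all 2202 microRNA genes. With so few genes, the difference between the families is a description only. None of 23 Mir466 array genes was detected, with 2 counts per library over all of them, and none of 5 Mir297 array genes, with 1 count in replicate 1. Outside Sfmbt2 the 10 genes (5 Mir466, 3 Mir467, Mir297-1 and Mir669n) had no counts in either library. For reads that could be counted, this allows up to 0.396 and 0.304 CPM for each. Reads set aside as multi-mapped are not covered by this limit. The 10 genes include the 8 whose mature sequences are shown, such as Mir466i (chr13:17747473-17747593) and Mir467g (chr5:34732853-34732972). No named gene, inside or outside, had a count on the opposite strand.

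The detected genes lay towards the ends of the array. Going along Sfmbt2, Mir669l and Mir467c were near the start, and Mir467e, Mir467d, Mir669c and Mir669o near the end. The longest run without a detected gene lay between Mir467c and Mir467e, with 38 consecutive named genes over 29.7 kb (chr2:10474219-10503877). It was picked from these counts, so the lack of detected genes in it follows from the choice. These 38 genes had 3 counts in replicate 1 and 0 in replicate 2. The 13 genes before them had 761 and 252 counts, and the 20 genes after them had 1968 and 543. That contrast is also favoured by the choice and is given as a description. This stretch holds all numbered copies of Mir467a and Mir466b, and those of Mir669a except Mir669a-2.

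The near-identical copies also bear on what could be counted. Each hairpin was cut into all its windows of 20 bases, and a window was called the hairpin's own if it occurred once in it and in no other annotated microRNA hairpin on either strand. No own window was left for 32 of the 71 array genes, and none of these 32 had a count. Of the 38 genes in the middle stretch, 31 were such genes. The 39 array genes with an own window included all 14 with any count. Over all 2202 genes, 338 had no own window, of which 21 had a count and 14 were detected. Of the 1864 genes with an own window, 687 had a count and 300 were detected. A gene without an own window could thus have counts, but counts were rarer among such genes.

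Mir467d had the fewest own windows of the detected genes, 25 of 66 (37.9%), and it shared the rest with 14 other hairpins, all 10 Mir467a copies among them. Mir467e had 39 of 68 (57.4%) and Mir467c 47 of 78 (60.3%). The hairpins of Mir467d and Mir467e were 92.0% identical, and Mir467c was 83.5% identical to Mir467d and 83.7% to Mir467e. The Mir467a copies were 82.4% to 85.4% identical to Mir467d. Mir669c had 73 own windows of 90 (81.1%), Mir669l 40 of 79 and Mir669o 39 of 77. The counts of all 6 detected genes are therefore uncertain, and how reads from their shared windows were counted was not tested. Windows were compared among hairpins only, and the rest of the genome was not searched.

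Own windows did not by themselves come with counts. At least 25 of them, as many as Mir467d had, were found in 25 array genes, of which 6 were detected, 5 had fewer counts and 14 had none. This cutoff was taken from the detected genes, so all 6 pass it. The 14 array genes with some but fewer own windows included no detected gene. Among the 1590 other microRNA genes with at least 25 own windows, 18.4% were detected, which cannot be compared with the array at this cutoff. Of the 39 array genes with any own window, 6 were detected, against 300 of 1864 over all genes. Mir466g (chr2:10514595-10514674) shared no window with any hairpin and had 0 counts. It was named after its values were seen, as the array gene with all of its windows its own. Of the 10 genes outside Sfmbt2, 9 had at least 25 own windows, and all were at 0.

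**Figure D3:**
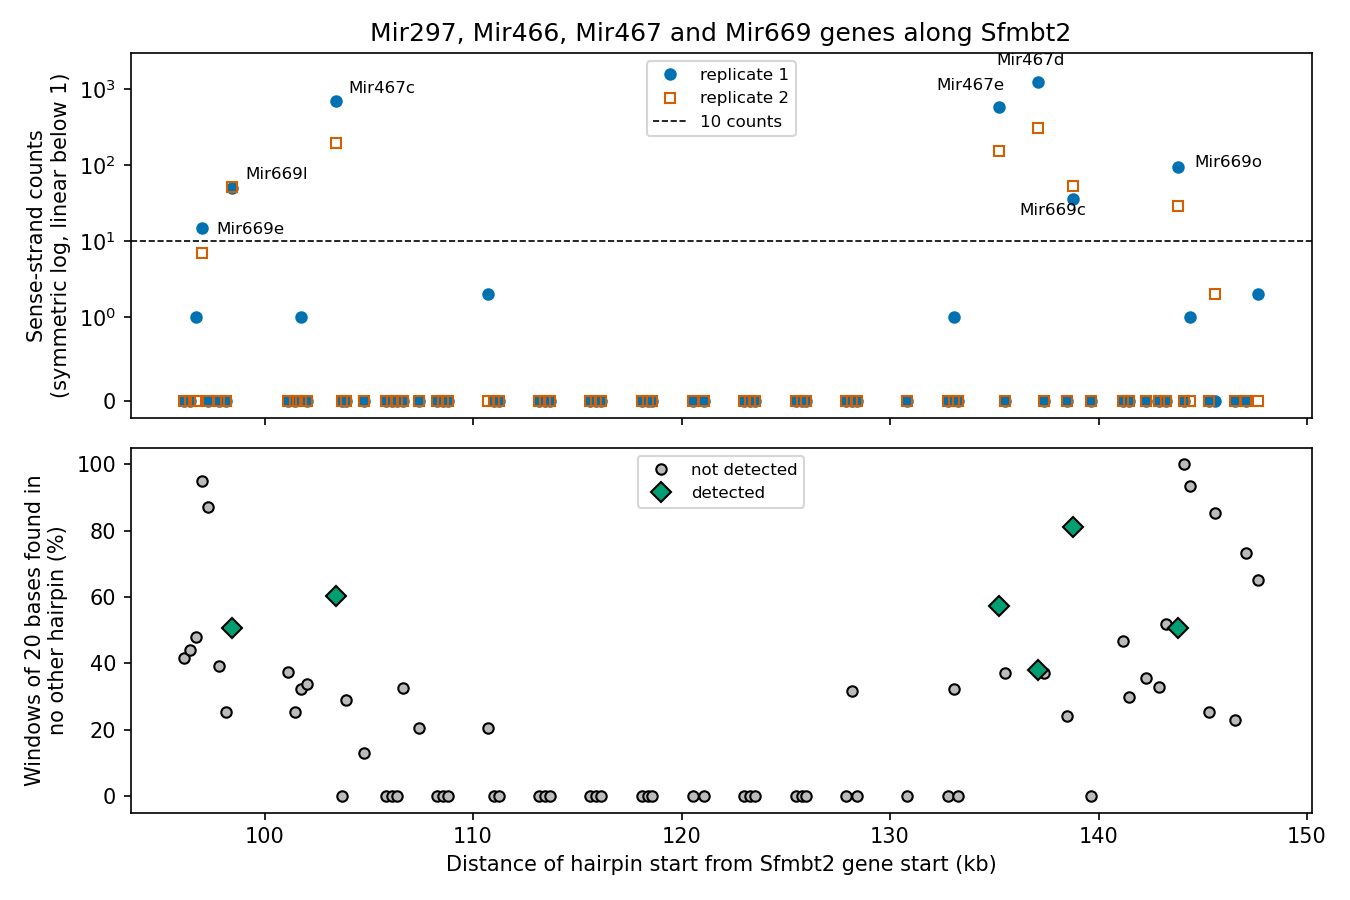
Sense-strand counts (top, symmetric log axis) in replicate 1 (blue circles) and replicate 2 (orange squares), and the percentage of 20-base windows found in no other hairpin (bottom), for the 71 array genes by distance from the start of Sfmbt2 (x, kb). Counts above the dashed line at 10 lie at the ends of the array, and in the middle stretch of 38 genes the windows are mostly at 0%.

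To ask whether a gene differed between the libraries by more than counting error, its counts were set against the library totals in an exact binomial test (two-sided), with Benjamini-Hochberg adjustment over all 314 detected microRNA genes. Of the 6 detected genes, 4 were higher in replicate 1 and none in replicate 2. Over all 314 genes, 66.6% passed this test, 38.2% as higher in replicate 1 and 28.3% as higher in replicate 2, so passing was common. The test compares these libraries and no conditions.

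Mir467d was 5.31-fold higher in replicate 1 (exact 95% interval 4.68 to 6.04, adjusted p = 6.31e-195 in the exact binomial test). Mir467e was 4.98-fold higher (4.16 to 5.996) and Mir467c 4.66-fold (3.96 to 5.49). Mir669o was 4.22-fold higher (2.76 to 6.64, adjusted p = 3.72e-13 in the exact binomial test). The intervals of these 4 ratios overlapped. Ratios above 4-fold towards replicate 1 were reached by 18 of the 314 genes (5.73%), so these hairpins made up 4 of the 18.

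Mir669l and Mir669c did not pass the test. Mir669l was 1.28-fold higher in replicate 1 (0.846 to 1.92, adjusted p = 0.295 in the exact binomial test). Mir669c had a ratio of 0.884 (0.562 to 1.38, adjusted p = 0.667 in the exact binomial test). Their intervals did not overlap with those of Mir467c, Mir467d, Mir467e or Mir669o. Hairpins of the same intron and strand thus had ratios between the libraries that differed by more than the counting error of reads taken as independent. Mir669c starts 1.58 kb after the end of Mir467d.

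Hairpin GC moved with the ratio between the libraries over all genes. Spearman's rho of the log2 ratio with hairpin GC was -0.28 over the 314 detected genes, which share their libraries, and is given as a description. The detected array genes were low in GC, from 34.7% (Mir669l) to 42.4% (Mir467d), against a median of 51.5%. Among 86 other detected genes within 5 percentage points of Mir467d in GC, the median log2 ratio was 0.43 and 10 were above 4-fold, against a log2 ratio of 2.41 for Mir467d. In the same GC windows of Mir467c, Mir467e and Mir669o, 7 of 66, 2 of 38 and 2 of 36 other genes were above 4-fold. Mir669l and Mir669c, at 34.7% and 39.4% GC, had log2 ratios of 0.35 and -0.18. The medians of the other genes in their GC windows were 0.71 and 0.44. The part of GC in the ratios was not tested.

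**Figure D4:**
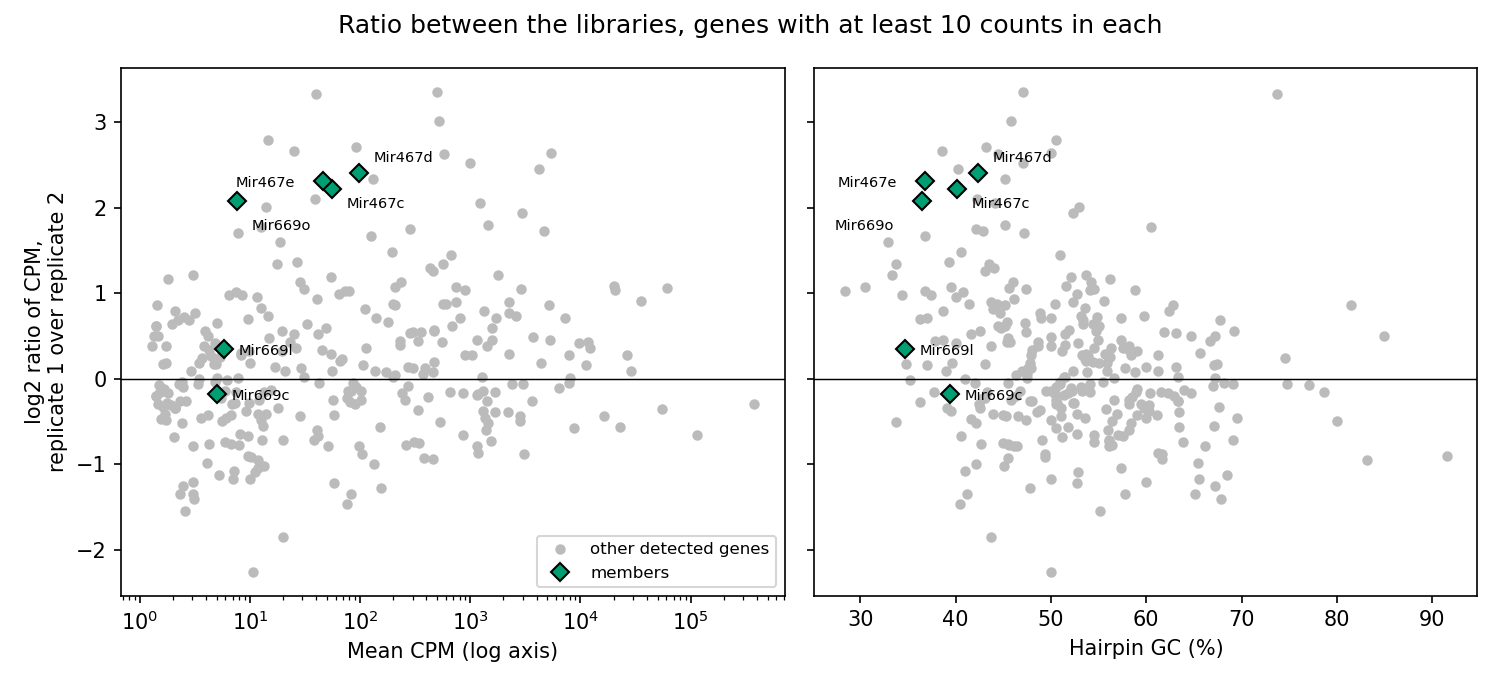
Log2 ratio of CPM, replicate 1 over replicate 2 (y), of the 314 microRNA genes with at least 10 counts in each library, against mean CPM (left, log axis) and hairpin GC (right, %). The 6 detected array genes (green diamonds) lie at low GC, 4 of them at log2 ratios from 2.08 to 2.41 and Mir669l and Mir669c near 0.

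Other clusters were counted for scale. The 48 further microRNA genes inside Sfmbt2, of which 22 had no own window, had 0 counts in replicate 1 and 1 in replicate 2, on Gm22925. The miR-290 to miR-295 cluster, which marks embryonic stem cells and trophoblast, had 6 and 4 counts over 9 genes, led by Mir293 with 4 counts in replicate 1. None of its genes was detected. Over the whole list of 11 pluripotency and trophoblast markers, Mir302 and Mir367 genes included, the counts were the same 6 and 4, and 7 genes were at 0. The imprinted Dlk1-Dio3 cluster had 10 and 6 counts over 59 genes, led by Mir376a with 1 and 4 counts on the sense strand and none in the either-strand counts. The X-linked cluster near Fmr1 had 5 of 22 genes detected and 363 and 318 counts, led by Mir741 with 191 and 98 counts (25.2 and 9.93 CPM). The Sfmbt2 array held more counts than each of these 4 clusters in each library, with most of them on Mir467c, Mir467d and Mir467e. Among marker lists of other cell types, the 5 blood markers had 794 and 1809 counts, led by Mir142, and so exceeded the array's 795 counts in replicate 2. The 6 epithelial markers had 66 and 54 counts, and the 7 neural markers had 74 and 159.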

How the data were processed

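Each library was deposited by the authors as a table of raw read counts per microRNA gene (either strand, the gene's strand and the opposite strand). Reads were adapter-trimmed, per the labels' protocols, and the build was mm10 with GENCODE M21, per the file headers deposited beside the tables. No source used here names the aligner or counter. A separate entry holds multi-mapped reads, so the counts were read as uniquely mapped reads. The 4 entries that name no gene were left out of totals and tests.

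Here the sense-strand counts were used. All 2202 identifiers matched M21, which gave names, positions and hairpins. Named genes were to be every member with at least 10 counts in each library, the 10 members with the largest mean CPM, the largest ratio between the libraries in each direction, and the top gene of each comparison list. The members and lists were chosen with earlier results of these data known. Binomial tests were run in scipy 1.17.1. They were tried on simulated counts that varied by counting error alone, so that trial does not cover other variation between libraries. TMM factors (edgeR 4.0.16) and DESeq2 1.42.0 size factors were alternatives. Hairpin identities came from global alignments in Biopython 1.88. With 1 group, no test between conditions was made.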

Additional observations from a re-analysis of the deposited data

Results flagged for a closer look

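Multi-mapped reads, which enter no gene level, numbered 3378438 in replicate 1 and 3295854 in replicate 2, each over the whole library. Their share that belongs to the near-identical Mir466, Mir467 and Mir669 copies was not tested.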

How the results depend on the processing

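The 6 detected genes inside Sfmbt2 became 3 with a minimum of 100 counts (Mir467c, Mir467d and Mir467e) and 0 among hairpins that share no 20 bases with another. In the latter setting only Mir466g was left and the summed share was 0%. Without either replicate in turn the number detected ranged from 6 to 7 and the summed share from 0.00806% to 0.0360%. With all reads as denominator the mean share was 0.0111%. In the either-strand counts Mir376a fell to 0 CPM from 0.269. Mir669c stood at 5.79 CPM in place of 5.06 with the same 36 and 53 counts, since the library totals were smaller. The CPM of every other detected array gene rose as well, that of Mir467d from 98.2 to 109.9. The genes outside Sfmbt2 stayed at 0 in every setting run. The test between the libraries called 4 array genes with TMM factors, DESeq2 size factors, either-strand counts and a minimum of 1 count, all higher in replicate 1, and 3 of 3 with a minimum of 100 counts. With windows of 18 or 22 bases, chosen after seeing the data, 32 array genes again had no own window. Depth limits single genes: a hairpin below 0.396 CPM in replicate 1 or 0.304 CPM in replicate 2 could have been missed. These limits do not cover reads set aside as multi-mapped. No paired analysis was possible because the series has 1 group.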
